A study of Homo sapiens with 9 samples.

Results

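The BCL2 family genes were examined for their mRNA levels in MDA-MB-231 cells, with or without rimonabant or the compound TXX-1-10. The 10 members were taken by gene name: the guardians BCL2, BCL2L1 and MCL1, the effectors BAX and BAK1, and the BH3-only genes BBC3, PMAIP1, BCL2L11, BID and BAD. All 10 were found among the 27615 genes of the longest deposited list. MDA-MB-231 is an established human triple-negative breast cancer cell line. RNA sequencing was performed on 9 libraries, with 3 from cells given DMSO (the vehicle), 3 from cells given rimonabant, an antagonist of cannabinoid receptor 1, and 3 from cells given TXX-1-10, a compound derived from rimonabant. Neither the dose nor the duration of treatment of the sequenced cells is given in the sources used here, so each comparison of the compounds is one at the doses the study used, which may differ. Nothing in the labels says whether the 3 libraries of a group came from separate cultures.

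BCL2 family proteins decide whether the mitochondrial outer membrane stays intact. Guardians such as BCL2, BCL-XL (the product of BCL2L1) and MCL1 hold the pore-forming effectors BAX and BAK in check. BH3-only proteins, which include PUMA (BBC3), NOXA (PMAIP1), BIM (BCL2L11), BID and BAD, bind the guardians or activate the effectors, after which cytochrome c is released and caspases are activated. Many of these proteins are controlled by modification, cleavage or degradation as well, which mRNA levels do not show.

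The levels are given as FPKM, fragments counted per gene, scaled to gene length and sequencing depth by the authors, and the comparisons were fitted on the read counts. Each deposited list broke off partway through its gene order. A gene missing from a list was treated as not measured and not as 0. MCL1, BCL2L1, PMAIP1 and BAX (4 genes) were listed in all 9 libraries, whereas the other 6 were absent from the list of rimonabant replicate 1. Rimonabant is therefore represented by 2 libraries for those 6 genes, and all 10 members were tested together over 8 libraries. The total fragment number behind the FPKM lay between 17078370 and 19277808 per library. Of the markers that fit this cell line, VIM was at 224 to 329 FPKM and AXL at 124 to 221 FPKM. ESR1 did not exceed 0.0314 FPKM and CDH1 was at 0 in the 4 libraries that listed it. Other markers taken as absent or low in this line were detected. ERBB2 was at 6.996 to 9.523 FPKM in all 9 libraries, and EPCAM was at 4.469 to 5.37 FPKM where listed. Among markers of other cell types PTPRC did not exceed 0.0639 FPKM and COL1A1 reached 0.798 FPKM. TXX-1-10 replicate 3 stood apart from the other TXX-1-10 libraries, with a chi-square per degree of freedom of 17.8 and 22.1 against 1.96 to 4.27 for the other pairs within a group. Its deviation from the group mean fell with gene length (Spearman rho -0.618), while those of TXX-1-10 replicates 1 and 2 rose (0.461 and 0.552). For rimonabant replicates 2 and 3 the values were 0.372 and -0.372. Over the 4237 genes listed in all 9 libraries, the mitochondrially encoded genes took 7.60% to 7.80% of the counts in vehicle. They took 7.78% to 8.47% in rimonabant and 4.22% to 4.64% in TXX-1-10. Their part in the results was not tested beyond a fit, given below, whose library sizes left them out.

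Promoter sequences are shown for 4 genes, since the largest rises in the family were those of BBC3 and BMF, PMAIP1 was the most abundant member that rose, and BAX was an abundant gene whose difference did not pass the test. Each line gives 250 bases upstream of the transcription start of RefSeq (GRCh38.p14), 5′ to 3′ on the strand of the gene. Capitals mark the matches, on either strand, to CACGTG (E-box), TGACGT (the core of a cAMP response element), CCAAT and GGGCGG (GC box).
BBC3, chr19:47232668-47232917, minus strand: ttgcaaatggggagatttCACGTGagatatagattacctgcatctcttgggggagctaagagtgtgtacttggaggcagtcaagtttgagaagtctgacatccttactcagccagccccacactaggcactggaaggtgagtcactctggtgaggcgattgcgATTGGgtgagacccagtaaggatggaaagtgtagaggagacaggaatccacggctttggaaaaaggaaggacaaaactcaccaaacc
PMAIP1, chr18:59899746-59899995, plus strand: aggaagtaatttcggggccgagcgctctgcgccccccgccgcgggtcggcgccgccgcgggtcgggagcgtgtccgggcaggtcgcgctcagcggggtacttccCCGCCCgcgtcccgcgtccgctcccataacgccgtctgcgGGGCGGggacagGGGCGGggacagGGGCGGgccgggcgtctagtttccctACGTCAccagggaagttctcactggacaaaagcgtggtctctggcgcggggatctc
BMF, chr15:40108880-40109129, minus strand: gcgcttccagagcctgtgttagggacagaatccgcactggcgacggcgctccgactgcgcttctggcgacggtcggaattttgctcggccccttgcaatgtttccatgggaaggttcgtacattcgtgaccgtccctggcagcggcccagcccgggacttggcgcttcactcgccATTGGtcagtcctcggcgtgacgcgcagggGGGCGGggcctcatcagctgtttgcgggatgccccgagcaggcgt
BAX, chr19:48954625-48954874, plus strand: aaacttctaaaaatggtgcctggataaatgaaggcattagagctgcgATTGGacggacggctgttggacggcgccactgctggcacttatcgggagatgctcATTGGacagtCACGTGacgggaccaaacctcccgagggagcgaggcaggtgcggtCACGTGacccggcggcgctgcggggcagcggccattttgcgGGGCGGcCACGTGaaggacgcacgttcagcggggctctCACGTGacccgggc
The BBC3 window held 1 CACGTG, starting 232 bases upstream, and 1 CCAAT at 87 bases. In PMAIP1 the only TGACGT match lay 56 bases upstream, beside 4 GC boxes at 82 to 146 bases. The BAX window held 4 CACGTG matches at 14, 45, 93 and 138 bases. Among the 35116 windows of this length, CACGTG was found in 6.34%, TGACGT in 7.10%, CCAAT in 32.0% and GGGCGG in 42.6%. The C/EBP-ATF composite element was searched as TGATGNAA (3.14% of all windows) and TTGCATCA (0.772%), whose reverse complement is itself a match to TGATGNAA, and neither was found in a window of the 9 members with a RefSeq window or of BMF. The forkhead motif GTAAACA (2.98%) was found in BCL2L11 alone among the members, 223 bases upstream. A match is a string of letters and shows no binding, and its absence says only that these letters were not in this window. RefSeq holds other starts for BMF, and a further BMF window (chr15:40106967-40107216) held none of the 4 marked motifs.

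Of the 10 members, 4 rose and 3 fell with TXX-1-10 against vehicle at an adjusted p under 0.05 (edgeR quasi-likelihood test, Benjamini-Hochberg over 9369 genes). BBC3 was the only member that changed at least 2-fold. PMAIP1, BCL2L11 and BAK1 rose by less, and BID, BCL2 and BCL2L1 fell. For comparison, 34.7% of all tested genes rose and 40.6% fell in that contrast, while 5.28% rose and 7.39% fell at least 2-fold. With most genes past the threshold, the members' count of calls is near the background. With rimonabant, 4 members rose (BBC3, BCL2, PMAIP1 and BCL2L11) and 1 fell (BCL2L1), against 23.7% of all genes higher and 22.8% lower. BBC3 was again the only member past 2-fold, where 0.736% of all genes were higher and 0.758% lower. Between the compounds, 4 members were higher with TXX-1-10 than with rimonabant (BBC3, BAK1, BCL2L11 and PMAIP1) and 2 were lower (BCL2 and BID), against a background of 26.7% higher and 33.9% lower. BBC3 was higher and BCL2 lower by at least 2-fold in this contrast, where 2.1% of all genes were higher and 4.31% lower. The rimonabant and vehicle libraries enter more than one of these comparisons.

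**Figure D1:**
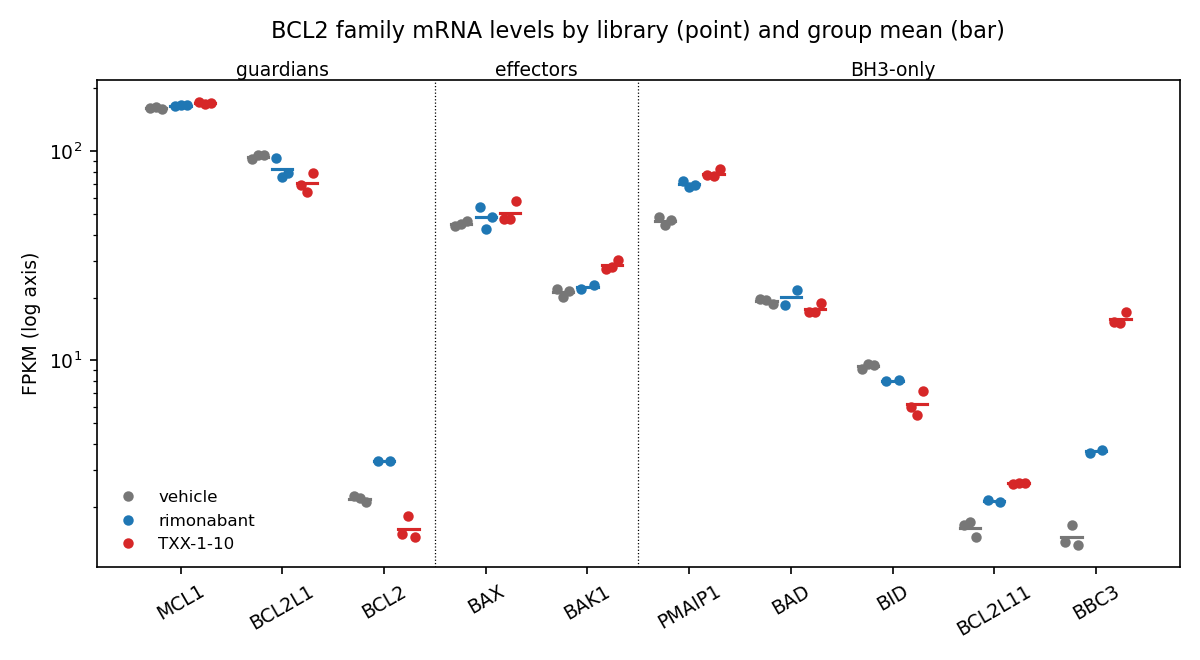
FPKM of each of the 10 genes (log axis) in every library that listed it, with bars at the group means. The genes are ordered by role. BBC3 lies between 1.31 and 1.64 FPKM in vehicle and between 15.2 and 17.0 FPKM with TXX-1-10, while the MCL1 points stay between 159 and 172 FPKM.

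In vehicle-treated cells the order of the levels was MCL1, BCL2L1, PMAIP1, BAX, BAK1, BAD, BID, BCL2, BCL2L11 and BBC3. Neighbours in this order overlapped between libraries for PMAIP1 with BAX and for BCL2L11 with BBC3. The guardian transcripts ran from MCL1 at 161 ± 1.91 FPKM (SD, n = 3) to BCL2 at 2.19 ± 0.0725 FPKM. With TXX-1-10, BBC3 (15.8 ± 1.02 FPKM) was close below BAD (17.7 ± 1.01 FPKM), and BCL2 (1.57 ± 0.200 FPKM) was the lowest member. In bulk samples a smaller number of cells with a transcript and less of it per cell cannot be told apart.

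Among the guardians, MCL1 (ENSG00000143384, chr1:150574551-150579738, minus strand, in the GRCh38 coordinates of the files) encodes a short-lived protein that binds NOXA and BIM. Its level was 162, 163 and 159 FPKM in the vehicle replicates, 164, 166 and 166 FPKM with rimonabant, and 172, 168 and 170 FPKM with TXX-1-10. The groups did not overlap, yet the differences were small. On the log2 scale the difference was 0.07 between TXX-1-10 and vehicle (95% interval -0.03 to 0.18, adjusted p = 0.175) and 0.04 between rimonabant and vehicle (adjusted p = 0.541). The difference from vehicle with TXX-1-10 passed the threshold in 5 of 21 other settings. Among these were edgeR with library sizes scaled by TMM, a trimmed mean of log ratios (0.13, adjusted p = 0.0166), and DESeq2 (0.12, adjusted p = 0.0163).

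BCL2L1 (ENSG00000171552, chr20:31664452-31723989, minus strand) encodes BCL-XL. Its FPKM was 91.5, 95.7 and 95.8 in vehicle, 92.9, 75.5 and 79.2 with rimonabant, and 69.0, 63.9 and 78.4 with TXX-1-10. Every TXX-1-10 library was below every vehicle library, whereas rimonabant replicate 1 lay within the vehicle range. BCL2L1 fell by 0.42 on the log2 scale with TXX-1-10 (SE 0.0686, adjusted p = 0.000119). With rimonabant over the 8 libraries it fell by 0.29 (adjusted p = 0.00953), but with rimonabant replicate 1 included the change was -0.19 (adjusted p = 0.099), and without rimonabant replicate 2 it was -0.25 (adjusted p = 0.0913). Between the compounds the difference was -0.13 (95% interval -0.30 to 0.03, adjusted p = 0.146). It passed the threshold with all 9 libraries (-0.23, adjusted p = 0.0463) and without TXX-1-10 replicate 3 (-0.22, adjusted p = 0.000127). The antisense gene ABALON shares 43.0% of the exon bases of BCL2L1, with 75 to 189 counts where it was listed, and whether the counting used strand is not given in the sources used here.

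BCL2 (ENSG00000171791, chr18:63123346-63320128, minus strand), the founding guardian, was the least abundant of them and the only member that passed the threshold in opposite directions with the compounds. Its FPKM was 2.25, 2.20 and 2.11 in vehicle, 3.29 and 3.29 with rimonabant, and 1.47, 1.80 and 1.43 with TXX-1-10. The read counts behind these values were 427 to 452, 717 to 729 and 310 to 389, and the 3 groups did not overlap. BCL2 rose by 0.59 on the log2 scale with rimonabant (SE 0.0932, adjusted p = 0.000349) and fell by 0.48 with TXX-1-10 (SE 0.0896, adjusted p = 0.00036). The direct contrast was -1.07 (95% interval -1.28 to -0.86, adjusted p = 1.30e-06), so that the level with TXX-1-10 was below that with rimonabant in 3 of 3 libraries. TXX-1-10 replicate 3 lay 0.19 below the mean of TXX-1-10 replicates 1 and 2 on the log2 scale. It was close to replicate 1 (1.43 and 1.47 FPKM), and replicate 2 was the highest (1.80 FPKM). Without replicate 3 the change against vehicle was -0.42 (adjusted p = 4.64e-05).

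**Figure D2:**
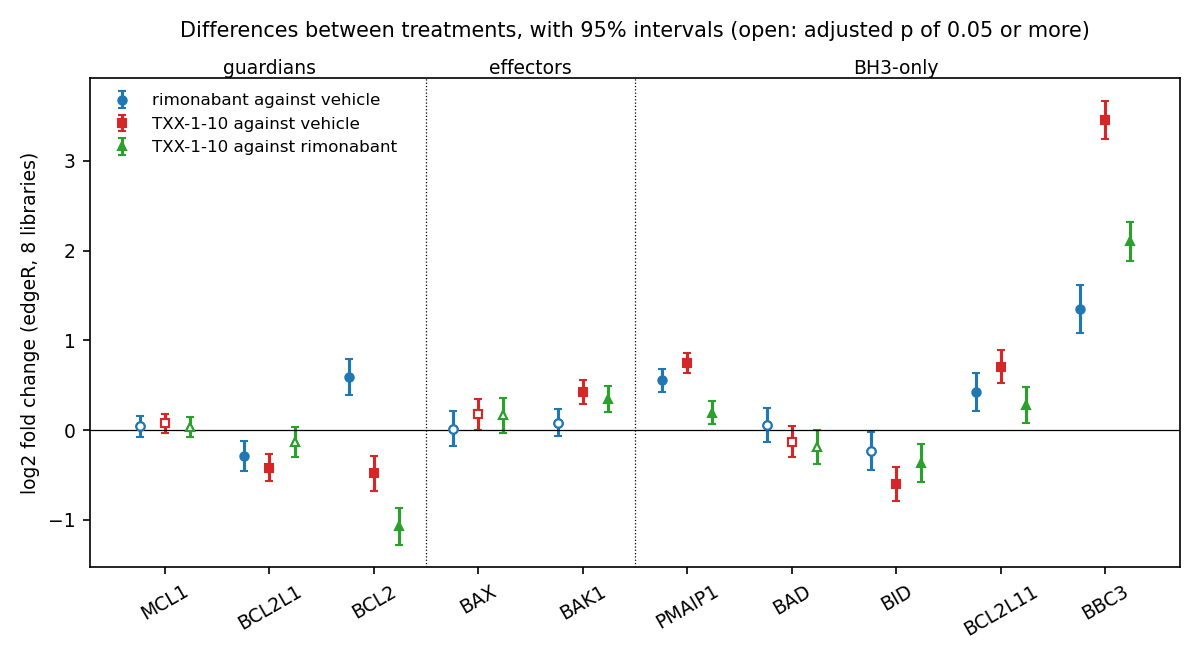
Log2 fold change of each member in the 3 comparisons (edgeR, 8 libraries), with 95% intervals. Filled symbols have an adjusted p under 0.05 and open symbols do not. BBC3 is highest in each comparison, and BCL2 lies above 0 with rimonabant (0.59) and below 0 with TXX-1-10 (-0.48).

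Of the effectors, BAX (ENSG00000087088, chr19:48954815-48961798, plus strand), which moves from the cytosol to the mitochondrion when activated, was at 43.9, 44.9 and 46.6 FPKM in vehicle. It was at 54.2, 42.5 and 48.6 FPKM with rimonabant and at 47.5, 47.6 and 57.8 FPKM with TXX-1-10. The rimonabant libraries fell on both sides of the vehicle range, and TXX-1-10 replicate 3 was the highest library of all. The difference from vehicle was 0.18 with TXX-1-10 (95% interval 0.00 to 0.35, adjusted p = 0.0598) and 0.01 with rimonabant (adjusted p = 0.909). The first of these passed the threshold in 8 of 21 other settings, with values from 0.08 to 0.27, and was 0.08 (adjusted p = 0.158) without TXX-1-10 replicate 3. The settings that passed included edgeR with TMM library sizes (0.23, adjusted p = 0.0147) and DESeq2 (0.22, adjusted p = 0.0115). BAX with TXX-1-10 minus BAX with rimonabant was 0.16 on the log2 scale (95% interval -0.03 to 0.36, adjusted p = 0.131).

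BAK1 (ENSG00000030110, chr6:33572547-33580293, minus strand) encodes BAK, which resides in the outer membrane. Its FPKM was 22.1, 20.2 and 21.5 in vehicle, 22.0 and 22.9 with rimonabant, and 27.5, 27.9 and 30.3 with TXX-1-10. The TXX-1-10 libraries were above all others, and the rimonabant libraries overlapped the vehicle range. BAK1 rose by 0.43 on the log2 scale with TXX-1-10 against vehicle (adjusted p = 4.28e-05) and was 0.35 higher than with rimonabant (adjusted p = 0.000862). With rimonabant the difference from vehicle was 0.08 (adjusted p = 0.37).

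Among the BH3-only genes, BBC3 (ENSG00000105327, chr19:47220822-47232766, minus strand) changed most. Its product PUMA binds all the main guardians. The read counts were 74, 90 and 72 in vehicle, 217 and 220 with rimonabant, and 938, 887 and 995 with TXX-1-10. In FPKM these were 1.36, 1.64 and 1.31, then 3.63 and 3.73, then 15.3, 15.2 and 17.0, and the 3 groups stood well apart. BBC3 rose 11.0-fold with TXX-1-10 (log2 3.46, 95% interval 3.24 to 3.67, adjusted p = 3.03e-11) and 2.55-fold with rimonabant (log2 1.35, SE 0.122, adjusted p = 6.55e-06). By p-value BBC3 ranked 72 of 9369 genes in the comparison of TXX-1-10 with vehicle, and its log2 fold change was at percentile 99.91 of all tested genes. The level with TXX-1-10 was 4.30-fold that with rimonabant (log2 2.10, 95% interval 1.89 to 2.32, adjusted p = 5.79e-09). In the fit with library sizes from nuclear genes alone the change with TXX-1-10 against vehicle was 3.55, and without TXX-1-10 replicate 3 it was 3.40.

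PMAIP1 (ENSG00000141682, chr18:59899948-59904306, plus strand) encodes NOXA, which binds MCL1 and promotes its degradation. It was at 48.8, 44.3 and 46.9 FPKM in vehicle, 72.4, 67.9 and 69.3 FPKM with rimonabant, and 76.7, 76.4 and 81.9 FPKM with TXX-1-10. Every treated library was above every vehicle library, and the TXX-1-10 libraries were above those of rimonabant. PMAIP1 rose by 0.75 on the log2 scale with TXX-1-10 (adjusted p = 7.28e-08) and by 0.56 with rimonabant (adjusted p = 1.99e-05). The difference between the compounds was 0.19 (adjusted p = 0.0137). That difference had an adjusted p of 0.0965 without rimonabant replicate 2 and 0.0561 without rimonabant replicate 3, and over all 9 libraries it was 0.17 (adjusted p = 0.0187).

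BCL2L11 (ENSG00000153094, chr2:111119378-111168447, plus strand) encodes BIM, which binds the guardians and activates BAX directly. Its FPKM was 1.64, 1.68 and 1.44 in vehicle, 2.15 and 2.11 with rimonabant, and 2.57, 2.60 and 2.59 with TXX-1-10, with no overlap between the groups. BCL2L11 rose by 0.71 with TXX-1-10 (adjusted p = 9.76e-06) and by 0.42 with rimonabant (adjusted p = 0.00378), both on the log2 scale. The difference of 0.28 between the compounds (adjusted p = 0.0191) did not pass without rimonabant replicate 2 (adjusted p = 0.0723) or without rimonabant replicate 3 (adjusted p = 0.0959). The gene MIR4435-2HG on the other strand shares 10.9% of its exon bases and had 474 to 815 counts.

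BID and BAD were not past the threshold as higher with either compound. BID (ENSG00000015475, chr22:17734138-17774770, minus strand), whose product is cleaved by caspase-8 to link death receptors to the mitochondrion, was at 9.11, 9.63 and 9.56 FPKM in vehicle, 7.998 and 8.025 FPKM with rimonabant, and 5.99, 5.49 and 7.17 FPKM with TXX-1-10. The groups did not overlap. BID fell by 0.60 on the log2 scale with TXX-1-10 against vehicle (adjusted p = 4.70e-05) and was lower than with rimonabant by a log2 difference of -0.37 (adjusted p = 0.00629). The difference between rimonabant and vehicle was -0.24 (adjusted p = 0.0627). It passed the threshold in 5 of 20 other settings, with values from -0.27 to -0.16 over all 20. BAD (ENSG00000002330, chr11:64269830-64284704, minus strand) encodes a protein that survival kinases such as AKT hold inactive by phosphorylation. It was at 19.8, 19.6 and 18.7 FPKM in vehicle, 18.5 and 21.8 FPKM with rimonabant, and 17.1, 17.1 and 18.9 FPKM with TXX-1-10, with overlapping ranges. Its log2 difference from vehicle was -0.13 with TXX-1-10 (adjusted p = 0.149) and 0.06 with rimonabant (adjusted p = 0.601), and that between the compounds was -0.19 (95% interval -0.37 to 0.00, adjusted p = 0.0758). Without TXX-1-10 replicate 3 the adjusted p was 0.0323 against vehicle and 0.0112 against rimonabant. GPR137 on the other strand shares 23.7% of the exon bases of BAD and had 910 to 1410 counts.

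The guardians made up 64.0% of the summed FPKM of the 10 genes in vehicle (mean of 3 libraries), 59.1% with rimonabant (2 libraries) and 54.7% with TXX-1-10 (3 libraries). The share of the BH3-only genes was 19.5%, 24.6% and 27.3%, and that of the effectors 16.5%, 16.3% and 17.97%. MCL1 alone held 40.1%, 39.8% and 38.5%, PMAIP1 11.6%, 16.4% and 17.7%, and BBC3 0.357%, 0.882% and 3.58%. The sum itself was 402 to 403 FPKM in vehicle, 410 and 425 FPKM with rimonabant and 426 to 465 FPKM with TXX-1-10. These shares compare transcripts per length and are descriptions of the libraries, without a test.

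Ratios often quoted for this family were computed in each library. BAX over BCL2 in FPKM was 20.7 ± 1.31 in vehicle (SD, n = 3), 13.8 ± 1.33 with rimonabant (n = 2) and 33.0 ± 6.95 with TXX-1-10 (n = 3), which is 0.670 and 1.60 times the vehicle value. These ratios follow BCL2, whose level is far below that of the other guardians. With the summed effectors over the summed guardians the ratio was 0.257 ± 0.00765, 0.276 ± 0.0178 and 0.329 ± 0.0222, or 1.07 and 1.28 times vehicle, so that the direction for rimonabant depended on which genes entered. The summed BH3-only genes over the summed guardians gave 0.304 ± 0.0108, 0.416 ± 0.0101 and 0.499 ± 0.0127. PMAIP1 was most of the BH3-only sum, at 46.65 of 78.45 FPKM in vehicle and 78.34 of 120.7 FPKM with TXX-1-10. BID fell with TXX-1-10, so this ratio does not describe each BH3-only gene. PMAIP1 over MCL1, the transcripts of a binding pair, gave 0.289 ± 0.0157, 0.422 ± 0.0168 and 0.461 ± 0.0187 over all 9 libraries.

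Other genes of the family were taken from lists of known members. BMF, a BH3-only gene whose product is bound to the cytoskeleton in healthy cells, was listed in 7 libraries. Its counts were 21 and 26 in vehicle, 37 and 35 with rimonabant, and 429, 381 and 365 with TXX-1-10, or 0.226 and 0.277, 0.361 and 0.347, and 4.09, 3.80 and 3.64 FPKM. In a fit over those 7 libraries and 11736 genes BMF was higher by 3.93 on the log2 scale with TXX-1-10 against vehicle (SE 0.164, adjusted p = 3.02e-09) and by 3.44 against rimonabant (adjusted p = 1.39e-08). With rimonabant against vehicle the difference was 0.49 (adjusted p = 0.137). The other BH3-only genes BIK and HRK had 7 to 14 and 4 to 30 counts where listed, too few to compare. The guardian BCL2L2 (BCL-w) rose by 0.52 with TXX-1-10 (adjusted p = 1.95e-05) and by 0.48 with rimonabant (adjusted p = 0.000345), opposite to BCL2L1. The effector-like BOK differed from vehicle by -0.07 (adjusted p = 0.418) and -0.06 (adjusted p = 0.562). Of the 5 tested atypical relatives, 2 rose and 1 fell with TXX-1-10 (median log2 0.11, against -0.04 for all tested genes, of which 34.7% rose and 40.6% fell). BCL2L13 (0.58) and BNIP3L (0.44) were those that rose, and BNIP3 (-0.66) the one that fell.

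The genes downstream of outer membrane opening moved in both directions. So did all tested genes, of which 34.7% rose and 40.6% fell with TXX-1-10, and 23.7% and 22.8% with rimonabant. Of 7 tested genes of the apoptosome and the released factors, 3 rose and 3 fell with TXX-1-10 (median 0.17), and 4 rose with rimonabant (median 0.25, against 0.00 for all tested genes). XIAP, the caspase inhibitor, rose by 1.21 with TXX-1-10 (adjusted p = 1.79e-08), from 4.83 to 5.31 FPKM in vehicle to 10.7 to 12.9 FPKM. CYCS, which encodes cytochrome c, fell by 0.61 (adjusted p = 5.14e-06). APAF1, the scaffold of the apoptosome, fell by 0.38 with TXX-1-10 (adjusted p = 9.40e-05) and rose by 0.47 with rimonabant (adjusted p = 0.000131). Of 10 tested partners at the mitochondrial membranes, 8 fell with TXX-1-10 and none rose (median -0.33), and 2 fell with rimonabant (median -0.10). The 2 falls with rimonabant are near the share of 22.8% over all tested genes. The falls with TXX-1-10 were largest for OPA1 (-0.77), which holds the cristae, the channel genes VDAC3 (-0.72) and VDAC1 (-0.53), and HK2 (-0.50), whose product binds the channel. The share of mitochondrially encoded counts, over the genes listed in all 9 libraries, was also smaller with TXX-1-10, at 4.22% to 4.64%.

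Regulators of the family at the level of protein stability went both ways, as did all tested genes (34.7% higher and 40.6% lower with TXX-1-10). Of 7 tested ligases and deubiquitinases, 3 rose and 3 fell with TXX-1-10 (median -0.15). USP13, a deubiquitinase reported for MCL1, fell by 1.45 with TXX-1-10 (adjusted p = 1.49e-10) and by 0.38 with rimonabant (adjusted p = 0.000181). Its level went from 12.1 to 12.4 FPKM in vehicle to 8.41 to 9.62 FPKM with rimonabant and 4.39 to 4.56 FPKM with TXX-1-10. HUWE1, a ligase of MCL1, fell by 0.55 with TXX-1-10 (adjusted p = 0.00218), with values from -0.67 to -0.37 under the alternatives. Its FPKM was 52.0 to 52.5 in vehicle and 39.1, 41.4 and 26.4 with TXX-1-10, lowest in replicate 3. With rimonabant HUWE1 fell by 0.42 (adjusted p = 0.0337), but no longer passed in 8 of 21 other settings. With TXX-1-10, BTRC rose by 0.57 (adjusted p = 1.56e-05), and RNF7 by 0.33 (adjusted p = 0.00223). Of 7 tested genes of the death receptor input to BID, 3 rose and 3 fell with TXX-1-10 (median 0.02), again near those shares. RIPK1 rose by 0.91, TNFRSF10B, the death receptor DR5, by 0.70 and TRADD by 0.62. CASP8 was at -0.21 (adjusted p = 0.0212), but no longer passed in 7 of 19 other settings (adjusted p up to 0.164), among them those without vehicle replicate 1 (adjusted p = 0.0541), vehicle replicate 2 (adjusted p = 0.102) or TXX-1-10 replicate 2 (adjusted p = 0.065).

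**Figure D3:**
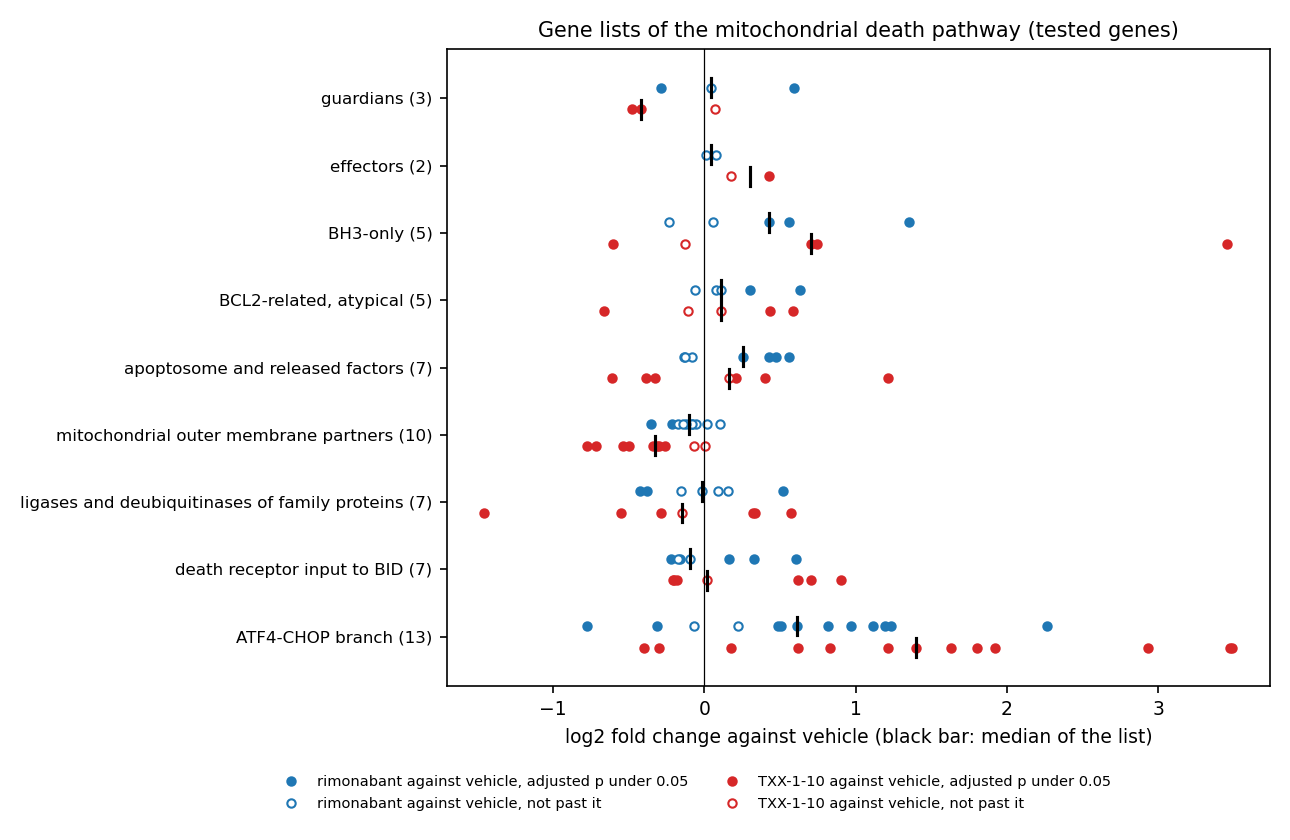
Log2 fold change against vehicle of every tested gene of the member groups and of 6 other lists (number of tested genes in parentheses), for rimonabant and TXX-1-10. Filled points have an adjusted p under 0.05, open points do not, and black bars are medians. The median of the ATF4-CHOP list, which includes ERN1 and XBP1, is 1.40 with TXX-1-10 and 0.61 with rimonabant.

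The lists of transcription factors known to induce BH3-only genes were read by their members' counts. The ATF4-CHOP branch is the arm of the integrated stress response in which CHOP (DDIT3) can induce BBC3 and TRIB3. Its list had 13 tested genes, among them ERN1 and XBP1, which belong to a separate arm of the unfolded protein response. With TXX-1-10, 11 rose and 2 fell (median 1.40), and 8 rose at least 2-fold. ERN1 (1.80) and XBP1 (1.40, the median) were among those 8, and both also rose with rimonabant (0.49 and 0.81). Among all tested genes 34.7% rose and 40.6% fell, and 5.28% rose at least 2-fold. With rimonabant, 9 rose and 2 fell (median 0.61), beside 23.7% and 22.8% of all tested genes. DDIT3 counts were 240, 254 and 253 in vehicle, 520 and 540 with rimonabant, and 3071, 2627 and 3436 with TXX-1-10, a log2 change of 0.97 and 3.49. TRIB3 changed by 1.20 and 3.48, CHAC1 by 2.27 and 2.94, and ATF3 by 1.23 and 1.92, each with an adjusted p under 0.05. The genes that fell were EIF2AK4 and EIF2AK1 with TXX-1-10, which encode kinases at the top of the pathway, and EIF2AK4 and DDIT4 with rimonabant.

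Of other factors that can induce BH3-only genes, E2F1 fell by 1.30 with TXX-1-10 (adjusted p = 1.22e-08) and rose by 0.51 with rimonabant (adjusted p = 0.000317), while FOXO3 rose by 0.44 with TXX-1-10 (adjusted p = 8.89e-05). The other FOXO genes of the list, FOXO1 and FOXO4, were tested only in the edgeR fit over 7 libraries. There FOXO1 rose by 1.20 with TXX-1-10 (adjusted p = 2.00e-06) and 0.46 with rimonabant (adjusted p = 0.0152). FOXO4 rose by 1.09 (adjusted p = 3.23e-05) and 0.75 (adjusted p = 0.00335).

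The genes nearest in pattern were found for BBC3 and BCL2 by the root mean square difference, over the 8 libraries, of log2 CPM centred on each gene's vehicle mean. For BBC3 these were TRIB3 (0.142), SUN3 (0.188) and DDIT3 (0.217). TRIB3 changed by 3.48 with TXX-1-10 and 1.20 with rimonabant, beside 3.46 and 1.35 for BBC3. The nearest to BCL2 were PDK1 (0.0878), APAF1 (0.127) and VSIG10 (0.139), and PDK1 changed by -0.54 with TXX-1-10 and 0.53 with rimonabant, beside -0.48 and 0.59 for BCL2. Such likeness over 8 libraries in 3 groups is a description.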

How the data were processed

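RNA sequencing libraries from MDA-MB-231 cells were analysed from the gene lists the authors deposited, which hold read counts per gene and FPKM values. Per the labels and the submitters' processing notes, reads were aligned with HISAT2 2.0.5 and counted with featureCounts 1.5.0-p3, and the study's methods state poly(A) selection and the use of uniquely mapped exonic reads. The genome build and the strand setting are not given in the sources used here, and the coordinates of 27612 of 27615 genes match GENCODE 29 (GRCh38). The counts that the authors deposited were not normalized, and FPKM were deposited as the authors calculated them. Each list ended partway through a line, after 4237 to 27615 genes in a common order.

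The total behind the FPKM served as library size. edgeR 4.0.16 (R 4.3.3) quasi-likelihood tests were fitted on the counts of 8 libraries (without rimonabant replicate 1) and 9369 genes with a mean FPKM of at least 1, with Benjamini-Hochberg adjustment over all genes and no covariate. Calls required an adjusted p under 0.05, and 2-fold calls also a log2 change of at least 1 in size. SE were taken as the absolute log2 fold change over the square root of F, and 95% intervals from the t distribution with the fitted degrees of freedom. A fit over 9 libraries covered 4236 genes. Alternatives used limma 3.58.1 on log2(FPKM + 1) and log2(FPKM + 0.1), DESeq2 1.42.0, other library sizes and filters, a length offset, a replicate block and the omission of each library. The length offset with the replicate block and the library size from nuclear genes were chosen after seeing the data. P-values measure the spread between these libraries, which may be technical. Deviations of libraries with the same replicate number correlated at -0.08 to 0.14 where a vehicle library was in the pair. Between the treated groups these correlations were higher, at 0.383 and 0.423. The main fit did not pair libraries by number, and the source of this likeness between treated libraries was not tested.

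The members and gene lists were chosen with earlier results of these data known. All members are named. Of each other list the up to 4 genes with the largest change with TXX-1-10 among those past the threshold are named, except for some items that are not reported here.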

Additional observations from a re-analysis of the deposited data

Results flagged for a closer look

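For 3 genes of the BCL2 family (BCL2, BBC3 and BMF) the effects of the compounds against vehicle differed by at least 2-fold in the direct contrast of TXX-1-10 with rimonabant. BCL2 differed by -1.07 on the log2 scale, with a rise against vehicle under rimonabant and a fall under TXX-1-10. BBC3 differed by 2.10, with rises under both compounds. BMF, over 7 libraries, differed by 3.44, and its difference from vehicle passed the threshold with TXX-1-10 alone. Whether the doses were matched is not given in the sources used here.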

How the results depend on the processing

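Of 606 values for the 10 members under the alternatives, 566 kept their direction and their side of the threshold, 28 moved past it, 8 no longer passed it and 4 reversed. The reversed values, none of which passed the threshold, were BAX with rimonabant against vehicle, at -0.0229 with the replicate block, -0.00484 without vehicle replicate 1 and -0.0867 without rimonabant replicate 3 (range over the omitted libraries -0.0867 to 0.108), and BAD in the same comparison, at -0.0631 without rimonabant replicate 3 (range to 0.168). Among the other named genes 3 of 1071 values reversed, all under rimonabant and near 0: HK2 at -0.0147 with all 9 libraries and -0.0177 without rimonabant replicate 2 (range to 0.0553), and BNIP3 at 0.00959 with nuclear library sizes. With all 9 libraries the lists held 4 members, of which 2, 1 and 2 passed the threshold for TXX-1-10 against vehicle, rimonabant against vehicle and TXX-1-10 against rimonabant, and 0 changed 2-fold in each. With TMM library sizes and with DESeq2, 9 members passed the threshold for TXX-1-10 against vehicle, BAX and MCL1 among them. With limma on log2(FPKM + 1), which compresses low levels, 0 members changed 2-fold with rimonabant and 1 between the compounds. At a mean FPKM of at least 5, which leaves out BCL2 and BCL2L11, 3 members passed with rimonabant and 1 changed 2-fold between the compounds. The effector-to-guardian ratio with rimonabant over vehicle, 0.670 as BAX over BCL2, was 1.07 with the summed genes. Leaving out each library in turn gave 7 to 8 members past the threshold for TXX-1-10 against vehicle, 4 to 6 for rimonabant against vehicle and 4 to 8 between the compounds, with 1, 1 and 2 members changed 2-fold, and BAX over BCL2 at 1.42 to 1.76 times vehicle with TXX-1-10 and 0.624 to 0.716 times with rimonabant.

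With the replicate block 8, 5 and 7 members passed the threshold in the 3 comparisons. BAX then passed for TXX-1-10 against vehicle (0.17, adjusted p = 0.0188) and against rimonabant (0.19, adjusted p = 0.0281), and no other member changed its call. The numbers were not taken as pairs.

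The rimonabant group rests on 2 libraries for 6 members, so that omitting either leaves 1, which is then assumed to vary like the other groups. Counts of 72 to 90 for BBC3 and 21 to 26 for BMF limit the precision of their vehicle levels.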
